A study of Mus musculus with 13 samples.

Results

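The 10 genes described here encode the type IV collagen chains Col4a1, Col4a2, Col4a5 and Col4a6, the nidogens Nid1 and Nid2, the heparan sulfate proteoglycans perlecan (Hspg2) and agrin (Agrn), and the cell surface receptors Bcam and dystroglycan (Dag1). They were taken from a named list of symbols, 1 row per gene, among 19938 mouse genes measured in rectal tissue on 13 Affymetrix Mouse Gene 1.0 ST arrays. Each of the 10 had 1 probe set (a transcript cluster in the array's terms) that belongs to that gene alone, and no filter on low values was applied, so all 10 were tested.

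The study deals with mice in which the gene of integrin α6 was deleted in the intestinal epithelium. The floxed α6 allele (α6fl/fl) was recombined by Cre under the Villin promoter, which is active in intestinal epithelial cells and leaves the allele intact in stroma, vessels and muscle. Such mice developed rectal prolapses, and a pathologist located the adenocarcinomas on stained sections. The adenocarcinoma group holds 5 arrays, numbered 1, 2, 3, 4 and 6, from mutant mice of 53, 60, 60, 64 and 80 weeks, of which numbers 1 and 6 were female. The inflamed mucosa group holds 4 arrays, numbered 1 to 4, of adjacent tissue without tumour from mutant mice of 53, 60, 60 and 64 weeks, of which number 1 was female. Normal mucosa came from matched control mice and holds 4 arrays, numbered 1, 2, 4 and 6, at 53, 60, 64 and 70 weeks, of which numbers 1 and 6 were female. One label field calls the normal samples controls, while the genotype field gives α6fl/fl Villin-Cre for all 13 arrays, so the control genotype is not settled by the labels. Tumour and inflamed tissue were cut from frozen sections of prolapses and normal mucosa was scraped from the rectum, so in both comparisons with normal mucosa the way of collection and the group cannot be told apart.

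A basement membrane is a thin sheet of matrix under epithelia and around vessels, muscle and nerve. It joins a laminin network, held by integrins and dystroglycan at the cell surface, to a covalently cross-linked network of type IV collagen. Nidogens bind laminin and collagen IV and bridge the networks, and perlecan and agrin add heparan sulfate chains that hold growth factors. Integrin α6β4, the receptor deleted here, anchors gut epithelium to the laminin of its basement membrane.

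The start regions of these genes are shown because the collagen chains are arranged in head-to-head pairs whose members are compared in the results. The sequences come from RefSeq on build GRCm38.p6, where 9 of the 10 genes had an entry (all but Nid2). Col4a1 and Col4a2 lie on opposite strands of chromosome 8, and their start sites are 21 bases apart. The span that holds both start sites, plus strand, is chr8:11312805-11312826.

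Col4a1 and Col4a2: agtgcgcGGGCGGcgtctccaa

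Col4a5 and Col4a6 also lie head to head, on chromosome X, but their starts are 1343 bases apart and do not overlap. Their 250 bases before the start are given for contrast, Col4a5 at chrX:141475169-141475418 on the plus strand and Col4a6 at chrX:141474077-141474326 on the minus strand. Nid1 (chr13:13437352-13437601, plus strand) and Hspg2 (chr4:137468553-137468802, plus strand) are shown because they had the largest differences from normal mucosa among the members outside collagen IV. Each sequence reads 5′ to 3′ on the strand of its gene.

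Col4a5: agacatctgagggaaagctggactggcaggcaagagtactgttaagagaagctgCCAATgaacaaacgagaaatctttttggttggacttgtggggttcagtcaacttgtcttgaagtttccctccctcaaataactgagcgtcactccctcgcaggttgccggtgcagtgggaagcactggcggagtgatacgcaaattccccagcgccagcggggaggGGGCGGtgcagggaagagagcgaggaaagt

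Col4a6: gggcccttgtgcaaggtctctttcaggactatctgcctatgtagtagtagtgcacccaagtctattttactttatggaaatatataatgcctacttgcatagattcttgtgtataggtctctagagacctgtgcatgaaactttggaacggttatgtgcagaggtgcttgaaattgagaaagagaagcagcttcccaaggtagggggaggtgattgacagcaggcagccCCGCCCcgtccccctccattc

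Nid1: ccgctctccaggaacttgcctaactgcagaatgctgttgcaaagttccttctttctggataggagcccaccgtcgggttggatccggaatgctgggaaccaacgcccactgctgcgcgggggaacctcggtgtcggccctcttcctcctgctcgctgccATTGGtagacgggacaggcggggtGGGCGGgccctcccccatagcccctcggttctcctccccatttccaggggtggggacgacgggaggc

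Hspg2: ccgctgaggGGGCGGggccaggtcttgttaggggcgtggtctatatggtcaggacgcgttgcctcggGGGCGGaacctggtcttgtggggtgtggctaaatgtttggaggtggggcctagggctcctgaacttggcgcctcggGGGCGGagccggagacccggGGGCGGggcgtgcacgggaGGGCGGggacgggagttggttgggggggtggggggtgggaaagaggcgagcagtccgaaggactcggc

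Capitals mark matches, on either strand, to the GC box GGGCGG, the CCAAT box CCAAT, the TATA box TATAAA or the AP-1 motif TGANTCA. No match overlaps another in the sequences shown. The span shared by Col4a1 and Col4a2 holds 1 GC box. The Hspg2 sequence holds 5 GC boxes, the Nid1 and Col4a5 sequences 1 GC box and 1 CCAAT box each, and the Col4a6 sequence 1 GC box. In their own 250 bases before the start, Col4a1 has 1 CCAAT box and Col4a2 2 GC boxes and 1 CCAAT box. Among 32851 RefSeq windows of 250 bases before a start, the length of all these sequences other than the 22-base span, a GC box was present in 32.7%, a CCAAT box in 33.8%, a TATA box in 12.4% and an AP-1 motif in 6.7%. These matches describe letters in a window and not binding.

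All values are log2 expression values, on which a difference of 1 is a doubling. Differences are given with their standard error (SE) from 1 limma fit of the 3 group means over all 19938 genes, and a gene was called when its Benjamini-Hochberg adjusted p was below 0.05. Array medians lay between 6.41 and 6.59, and arrays correlated with each other at 0.943 to 0.990. Xist and the Y-linked genes met the sex label on 13 of 13 arrays, and transcripts that should be absent by sex reached 5.57 at most. Itga6, the deleted gene, read 10.75 to 11.16 in normal mucosa, 10.90 to 11.20 in inflamed mucosa and 11.44 to 11.62 in adenocarcinoma. Its inflamed minus normal difference of 0.18 was not called (limma adjusted p = 0.195), and it was higher in adenocarcinoma, 1.54-fold against normal (0.63 ± 0.10; limma adjusted p = 0.000272) and 1.36-fold against inflamed mucosa (0.45 ± 0.10; limma adjusted p = 0.0134). The sources used here do not say whether its probes lie in the deleted part, so this reading does not check the genotype labels. The labels do not say that arrays of a group came from separate mice, so the p-values measure the spread between these samples.

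In inflamed against normal mucosa, 6 of the 10 genes rose (Col4a1, Col4a2, Nid1, Nid2, Hspg2 and Bcam), Agrn fell, and Col4a5, Col4a6 and Dag1 did not pass the test. Over all genes, 13.7% were called higher and 13% lower in that comparison. The median difference was 0.63 for the 10 genes and -0.09 for all genes. In adenocarcinoma against normal mucosa, 5 rose (Col4a1, Col4a2, Nid1, Nid2 and Hspg2), Agrn and Col4a6 fell, and Col4a5, Bcam and Dag1 did not pass. The background there was 16.4% of genes called higher and 19.4% lower, and the median difference was 0.64 for the 10 genes and -0.10 for all genes. Between adenocarcinoma and the adjacent inflamed mucosa, Col4a1 and Col4a2 rose and the other 8 did not pass, against 2.91% of all genes called higher and 4.21% lower. These background shares rest on 1420 calls, which became 775 (302 higher and 473 lower) without inflamed mucosa 2, 857 (350 higher and 507 lower) without inflamed mucosa 4 and 2296 with array weights. Each pair of these comparisons shares a set of arrays, so their agreement is not independent.

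**Figure D1:**
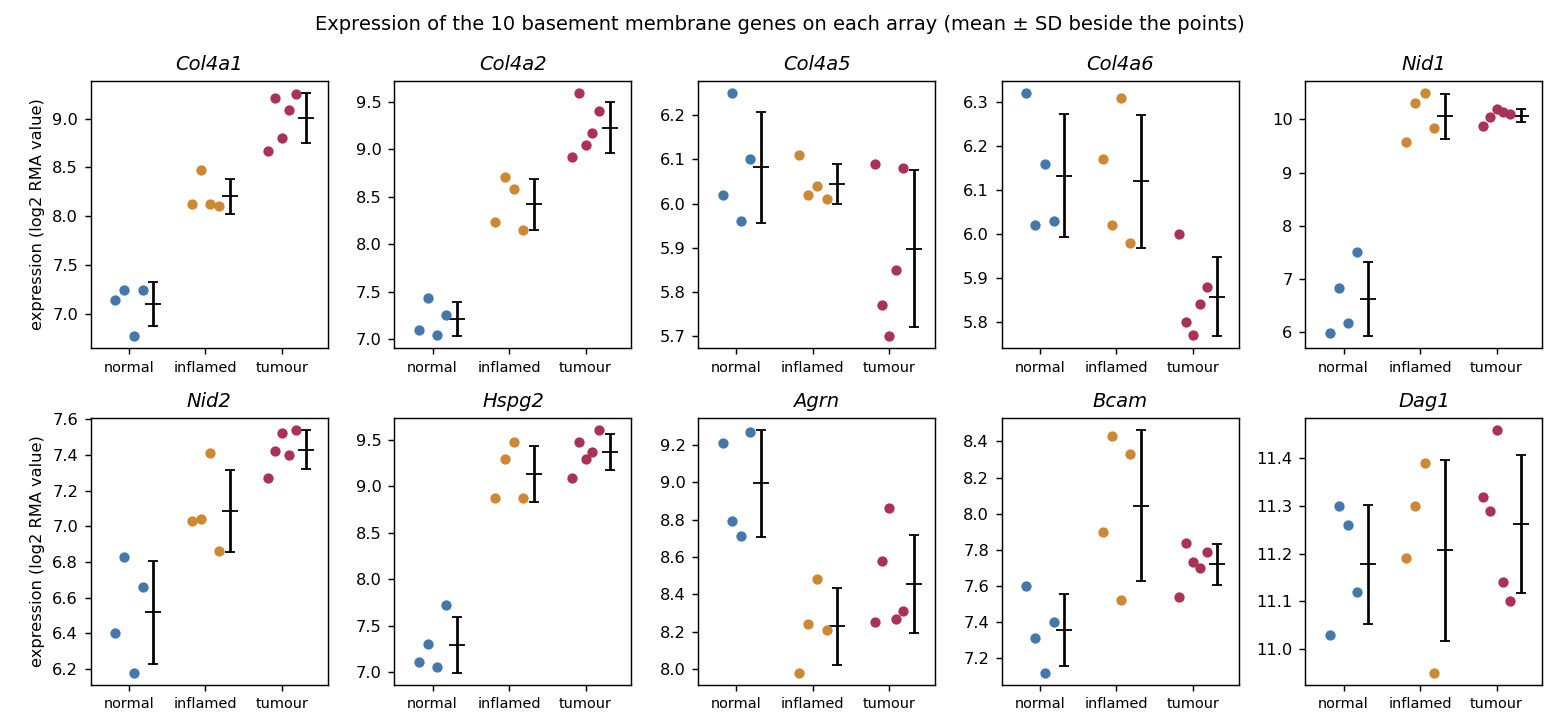
Log2 expression (vertical axis, a separate scale for each gene) of the 10 genes on each array, by group (horizontal axis), with the mean and SD beside the points. Col4a1 and Col4a2 form 3 groups that do not overlap, and Nid1, Hspg2 and, by a narrow margin, Nid2 separate normal mucosa from both other groups. Agrn is the gene whose inflamed values all lie below normal. The share of all genes that separate in these ways was not counted.

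Col4a1 and Col4a2 encode the α1 and α2 chains, which join in one heterotrimer and form the collagen network of nearly every basement membrane. Col4a1 (transcript cluster 10576973) read 7.14, 7.24, 6.77 and 7.24 in normal mucosa 1, 2, 4 and 6. It read 8.12, 8.47, 8.12 and 8.10 in inflamed mucosa 1 to 4, and 8.67, 9.21, 8.80, 9.09 and 9.25 in adenocarcinoma 1, 2, 3, 4 and 6. The 3 groups stood in the order normal, inflamed, adenocarcinoma with no overlap. The share of all genes whose groups do not overlap was not counted, for this gene or those below. Col4a1 was 2.16-fold higher in inflamed than in normal mucosa, a log2 difference of 1.11 ± 0.15 (SE; limma adjusted p = 0.000131). In adenocarcinoma it was 3.76-fold above normal (1.91 ± 0.14; limma adjusted p = 4.49e-07) and 1.74-fold above inflamed mucosa (0.80 ± 0.14; limma adjusted p = 0.00371).

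Col4a2 (cluster 10570068) read 7.10, 7.44, 7.05 and 7.26 in normal mucosa. The inflamed arrays read 8.24, 8.71, 8.58 and 8.15, and the adenocarcinomas 8.92, 9.59, 9.05, 9.17 and 9.40. As for Col4a1, every inflamed value lay above every normal value and below every tumour value. The gene was 2.31-fold higher in inflamed than in normal mucosa (1.21 ± 0.16; limma adjusted p = 0.000122), 4.04-fold higher in adenocarcinoma than in normal mucosa (2.01 ± 0.15; limma adjusted p = 5.44e-07) and 1.75-fold higher in adenocarcinoma than in inflamed mucosa (0.81 ± 0.15; limma adjusted p = 0.00569).

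The tumour and inflamed arrays that carry the same number also correlated weakly over all genes in their deviations from the group means (0.198 to 0.387). The 4 pairs were therefore set against each other. Col4a1 was higher in the tumour of 4 of 4 pairs, by 0.55 to 0.99, and Col4a2 in 4 of 4, by 0.47 to 1.03. Every tumour value of both genes lay above every inflamed value, so any matching of these arrays would give 4 of 4. With the number as a block in a fit of these arrays alone, the differences were 0.74 for Col4a1 (limma adjusted p = 0.00404) and 0.76 for Col4a2 (limma adjusted p = 0.00602). That fit was not among the planned ones and reuses the arrays of the comparison above, so it is not a separate test.

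Col4a5 and Col4a6 encode the α5 and α6 chains, which form a separate trimer that is found in the basement membranes of skin, smooth muscle and parts of the gut. Their readings were low: Col4a5 (cluster 10602105) ran from 5.70 to 6.25 and Col4a6 (cluster 10607012) from 5.77 to 6.32 over the 13 arrays, just above the 5.57 reached by absent transcripts. Col4a5 read 6.02, 6.25, 5.96 and 6.10 in normal mucosa, 6.11, 6.02, 6.04 and 6.01 in inflamed mucosa, and 6.09, 5.77, 5.70, 5.85 and 6.08 in adenocarcinoma. The groups overlapped and no comparison passed, with differences of -0.04 (inflamed minus normal, limma adjusted p = 0.793), -0.19 (adenocarcinoma minus normal, limma adjusted p = 0.144) and -0.15 (adenocarcinoma minus inflamed, limma adjusted p = 0.475). The 95% interval of the inflamed minus normal difference ran from -0.26 to 0.18, which is narrow beside the change of the α1 and α2 chains, but values so near the floor of the array can hide a change.

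Col4a6 read 6.32, 6.02, 6.16 and 6.03 in normal mucosa, 6.17, 6.02, 6.31 and 5.98 in inflamed mucosa, and 6.0, 5.80, 5.77, 5.84 and 5.88 in adenocarcinoma. All tumour values lay below all normal values, by a small margin. The fall from normal mucosa was 1.21-fold (-0.27 ± 0.09; limma adjusted p = 0.0346). It was not called in 5 of the 13 fits that each left out 1 array, those without adenocarcinoma 2, 3 or 4 or normal mucosa 1 or 4 (adjusted p = 0.0745, 0.0728, 0.0648, 0.104 and 0.0667), nor after cyclic loess scaling (-0.14, adjusted p = 0.251). Both other differences of Col4a6 missed the threshold (-0.01 for inflamed minus normal, limma adjusted p = 0.943, and -0.26 for adenocarcinoma minus inflamed, limma adjusted p = 0.116). The tumour was lower in 4 of 4 pairs, with differences of -0.54 to -0.14, but the pairs reuse the arrays of the latter comparison.

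The remaining collagen IV chains of the mouse, Col4a3 and Col4a4, were named here after their values were seen. Col4a3 fell from 6.57 ± 0.19 (SD, n = 4) in normal to 6.14 ± 0.06 (SD, n = 4) in inflamed mucosa (limma adjusted p = 0.0226). Col4a4 fell from 6.67 ± 0.10 (SD, n = 4) to 6.38 ± 0.11 (SD, n = 4; limma adjusted p = 0.038) and was 6.39 ± 0.14 (SD, n = 5) in adenocarcinoma (limma adjusted p = 0.0303 against normal). In adenocarcinoma Col4a3 was 6.30 ± 0.23 (SD, n = 5), which did not pass against normal (limma adjusted p = 0.0884). Thus the 2 chains of the ubiquitous trimer rose, and of the 4 other chains none was called higher in any comparison. All 4 of those chains read low, where a change can be hidden, and alternative fits were not made for Col4a3 and Col4a4.

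The nidogens are rod-like glycoproteins that connect laminin with collagen IV. Nid1 (cluster 10403584) had the largest differences from normal mucosa of the 10 genes. It read 5.98, 6.83, 6.18 and 7.51 in normal mucosa, 9.57, 10.31, 10.49 and 9.84 in inflamed mucosa, and 9.87, 10.05, 10.20, 10.13 and 10.09 in adenocarcinoma. Normal mucosa 6 was the highest normal array and still lay far below the lowest inflamed one, inflamed mucosa 1.

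Nid1 was 10.7-fold higher in inflamed than in normal mucosa (3.42 ± 0.28; limma adjusted p = 2.4e-06) and 10.9-fold higher in adenocarcinoma than in normal mucosa (3.44 ± 0.26; limma adjusted p = 6.08e-07). Normal mucosa 1 and 4 (5.98 and 6.18) read close to the 5.57 reached by absent transcripts, so these folds can understate the change. Adenocarcinoma and inflamed mucosa overlapped, with a difference of 0.02 ± 0.26 (95% interval -0.55 to 0.58; limma adjusted p = 0.988). Among the 4 numbered pairs the tumour was the higher in 2.

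Nid2 (cluster 10412921) read 6.40, 6.83, 6.18 and 6.66 in normal mucosa, 7.03, 7.04, 7.41 and 6.86 in inflamed mucosa, and 7.27, 7.42, 7.52, 7.40 and 7.54 in adenocarcinoma. Both inflamed and tumour values lay above all normal ones, though inflamed mucosa 4 was close to normal mucosa 2. The rise was 1.48-fold in inflamed mucosa (0.57 ± 0.14; limma adjusted p = 0.0104) and 1.89-fold in adenocarcinoma (0.92 ± 0.13; limma adjusted p = 0.000171). Adenocarcinoma minus inflamed mucosa was 0.35 ± 0.13 (95% interval 0.06 to 0.64), which missed the threshold over all genes (limma adjusted p = 0.155). The tumour was the higher in 4 of 4 pairs, by 0.12 to 0.54. These pairs reuse the arrays of that comparison and are not a separate test.

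Perlecan is the large proteoglycan of vessel, muscle and epithelial basement membranes. Hspg2 (cluster 10509280) read 7.11, 7.30, 7.05 and 7.72 in normal mucosa, 8.88, 9.30, 9.48 and 8.88 in inflamed mucosa, and 9.09, 9.48, 9.30, 9.37 and 9.61 in adenocarcinoma. Every value of both diseased groups was above every normal one, and the diseased groups overlapped. Hspg2 was 3.57-fold higher in inflamed than in normal mucosa (1.84 ± 0.17; limma adjusted p = 6.69e-06) and 4.22-fold higher in adenocarcinoma than in normal mucosa (2.08 ± 0.16; limma adjusted p = 7.48e-07). The difference between adenocarcinoma and inflamed mucosa was 0.24 ± 0.16 (95% interval -0.11 to 0.59; limma adjusted p = 0.501).

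Agrin, the other proteoglycan, is known for clustering acetylcholine receptors at the nerve-muscle junction and is also a component of epithelial and vascular basement membranes. Agrn (cluster 10519270) read 9.21, 8.79, 8.71 and 9.27 in normal mucosa, 7.98, 8.24, 8.48 and 8.21 in inflamed mucosa, and 8.25, 8.58, 8.86, 8.27 and 8.31 in adenocarcinoma. The inflamed values all lay below the normal ones, while adenocarcinoma 3 reached into the normal range. Agrn fell 1.70-fold in inflamed mucosa (-0.77 ± 0.17; limma adjusted p = 0.00443) and 1.46-fold in adenocarcinoma (-0.54 ± 0.16; limma adjusted p = 0.0165), each relative to normal mucosa. Between adenocarcinoma and inflamed mucosa the difference was 0.22 ± 0.16 (limma adjusted p = 0.518), with the tumour the higher in 4 of 4 pairs, by 0.06 to 0.38.

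**Figure D2:**
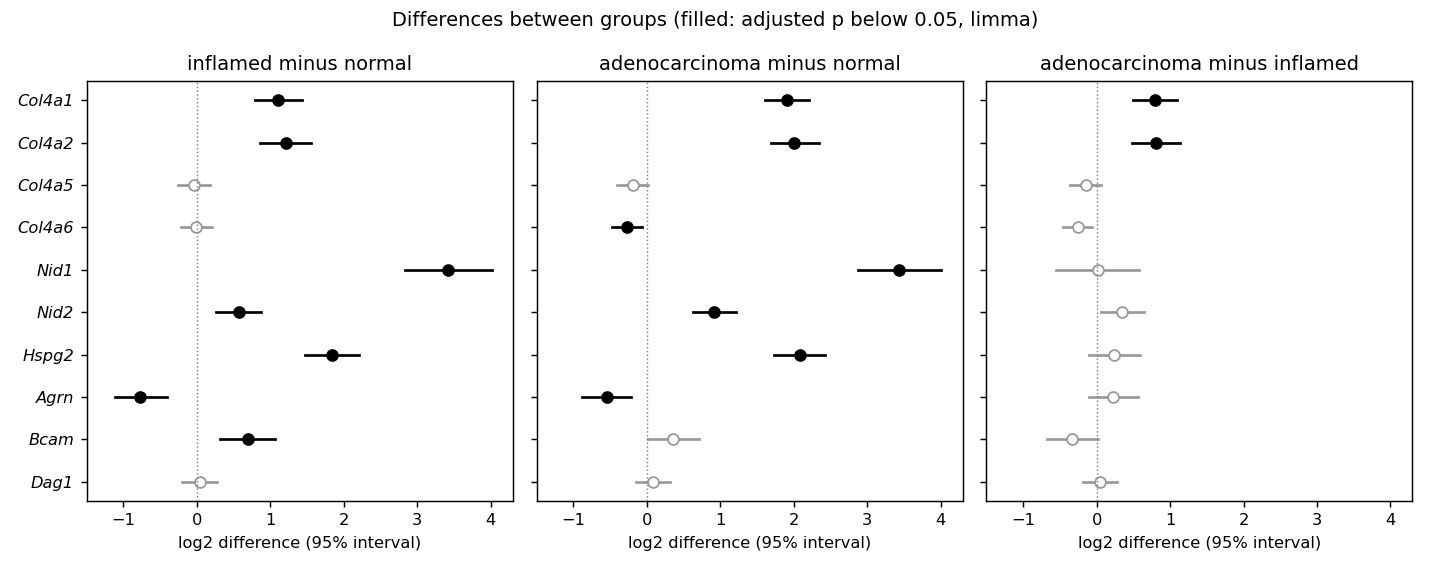
Log2 difference (horizontal axis) with its 95% interval for each of the 10 genes in the 3 comparisons, filled where the limma adjusted p was below 0.05. Nid1 lies farthest to the right in both comparisons with normal mucosa (3.42 and 3.44), Agrn to the left of 0, and Col4a1 and Col4a2 are the filled points between adenocarcinoma and inflamed mucosa (0.80 and 0.81).

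Bcam, also called Lutheran, is an immunoglobulin-family receptor for the laminin α5 chain. It read 7.60, 7.31, 7.12 and 7.40 in normal mucosa, 7.90, 8.43, 7.52 and 8.33 in inflamed mucosa, and 7.54, 7.84, 7.73, 7.70 and 7.79 in adenocarcinoma. Inflamed mucosa 2 and 4 were the highest arrays, and inflamed mucosa 3 lay within the normal range. Bcam (cluster 10560655) rose 1.62-fold in inflamed mucosa (0.69 ± 0.17; limma adjusted p = 0.00969). Its difference between adenocarcinoma and normal mucosa, 0.36 ± 0.16, missed the threshold (limma adjusted p = 0.0915), and passed in a fit of those 2 groups alone (adjusted p = 0.0291) and without inflamed mucosa 3 (adjusted p = 0.0379). Adenocarcinoma minus inflamed mucosa was -0.33 ± 0.16 (limma adjusted p = 0.298).

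Dystroglycan links laminin, agrin and perlecan outside the cell to dystrophin or utrophin inside it. Dag1 (cluster 10596893) read 11.03, 11.30, 11.26 and 11.12 in normal mucosa, 11.19, 11.30, 11.39 and 10.95 in inflamed mucosa, and 11.32, 11.29, 11.46, 11.14 and 11.10 in adenocarcinoma. The groups overlapped throughout, and no comparison passed. Its differences were 0.04 for inflamed minus normal (95% interval -0.20 to 0.28; limma adjusted p = 0.82), 0.09 for adenocarcinoma minus normal (-0.14 to 0.31; limma adjusted p = 0.524) and 0.05 for adenocarcinoma minus inflamed (-0.18 to 0.28; limma adjusted p = 0.892).

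**Figure D3:**
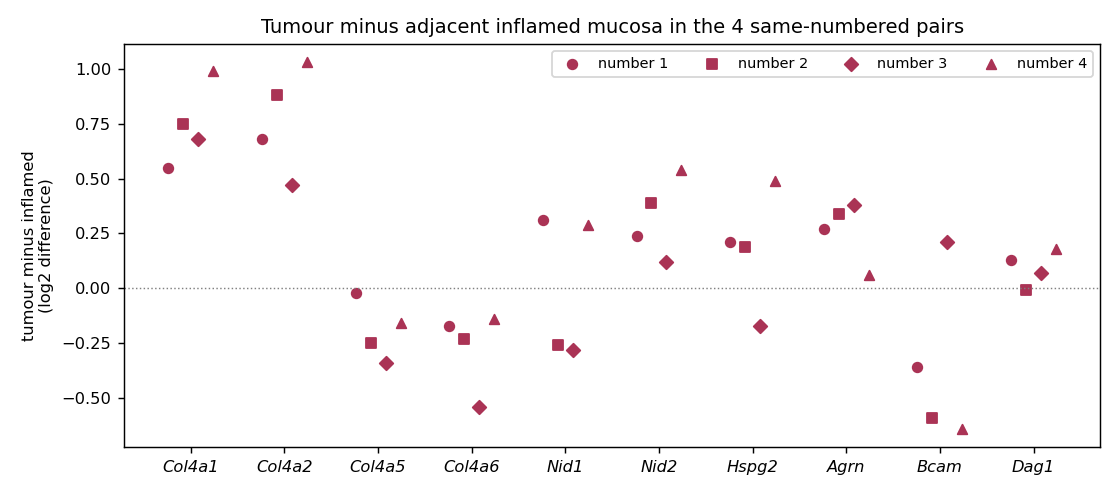
Adenocarcinoma minus inflamed log2 difference (vertical axis) for each gene in the 4 same-numbered pairs, one symbol per number. All 4 points lie above 0 for Col4a1, Col4a2, Nid2 and Agrn, and all 4 lie below 0 for Col4a5 and Col4a6.

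Cell type markers also differed between the groups, not always in the direction of these genes. In bulk tissue more cells of a type and more RNA per cell cannot be told apart. Against normal mucosa, neither can be told apart from the way of collection, scraping or cutting from frozen sections. Marker counts are to be read against the shares of all genes called. They were 13.7% higher and 13% lower in inflamed against normal mucosa, and 16.4% and 19.4% in adenocarcinoma against normal mucosa. Between adenocarcinoma and inflamed mucosa they were 2.91% and 4.21%. In inflamed against normal mucosa, all 13 smooth muscle markers, all 13 endothelial markers, all 13 fibroblast markers and 6 of 9 pericyte markers were called higher, and 6 of 12 pan-epithelial markers lower. Myh11, the smooth muscle myosin heavy chain, was 18.2-fold higher (limma adjusted p = 5.38e-07), and Pecam1, an endothelial adhesion protein, 6.09-fold higher (limma adjusted p = 5.38e-07). The mean log2 value of the smooth muscle list was 6.53 to 7.66 in normal mucosa, 9.45 to 10.39 in inflamed mucosa and 8.10 to 8.34 in adenocarcinoma.

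The endothelial list averaged 6.09 to 6.58 in normal mucosa, 7.87 to 8.45 in inflamed mucosa and 8.20 to 8.52 in adenocarcinoma. The fibroblast list averaged 6.72 to 7.68, 8.78 to 9.33 and 8.67 to 9.13 in the same order, and the pericyte list 6.47 to 6.73, 7.69 to 8.25 and 7.68 to 7.97. The normal ranges of these 4 lists thus lay wholly below the ranges of both diseased groups. So did that of the macrophage list (6.91 to 7.87, against 8.43 to 8.96 in inflamed mucosa and 7.90 to 8.58 in adenocarcinoma). The normal ranges of Col4a1, Col4a2, Nid1, Nid2 and Hspg2 also lay below both. How many of all genes have such ranges was not counted, and the cell source of these genes was not tested. Pan-epithelial markers averaged 11.87 to 12.20 in normal mucosa, 11.62 to 11.84 in inflamed mucosa and 11.90 to 11.99 in adenocarcinoma, and among the 10 genes the inflamed values of Agrn also lay wholly below the normal ones.

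In adenocarcinoma against normal mucosa, 13 of 13 endothelial, 11 of 13 fibroblast, 7 of 9 pericyte and 9 of 13 smooth muscle markers were called higher. So were 10 of 12 macrophage markers, with 1 lower, 9 of 12 neutrophil markers and 2 of 12 pan-epithelial markers, with 5 lower. The 2 of 12 is near the 16.4% of all genes called higher in that comparison. From inflamed mucosa to adenocarcinoma, 12 of 13 smooth muscle markers fell, 3 of 13 endothelial markers rose (Vwf, Eng and Cdh5, by 1.51-fold to 1.62-fold), and fibroblast markers split into 3 higher and 3 lower. Col1a1, a chain of interstitial collagen I, rose 2.96-fold in that comparison (limma adjusted p = 0.000126) while Lum, a proteoglycan of collagen fibrils, fell 4.52-fold (limma adjusted p = 0.00503) and Mfap5, a microfibril protein, 2.89-fold (limma adjusted p = 0.00177). Of 9 pericyte markers 1 rose (Pdgfrb, a receptor of pericytes and fibroblasts, 1.64-fold, limma adjusted p = 0.00745) and 1 fell (Abcc9, a potassium channel subunit, 1.79-fold, limma adjusted p = 0.0294). Col4a1 and Col4a2 rose there while the smooth muscle markers fell. Among immune lists, 10 of 12 macrophage markers were called higher and 0 lower in inflamed against normal mucosa, and neutrophil markers stood at 2 higher and 2 lower of 12 there, near the shares of all genes, but at 8 higher and 0 lower in adenocarcinoma against inflamed mucosa. Markers of enteric glia and neurons had 4 higher and 1 lower of 11 in inflamed against normal mucosa, and 1 higher and 4 lower in adenocarcinoma against inflamed mucosa.

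Fits with a marker score as a covariate were made as alternatives. With the smooth muscle score, 0 of the 10 genes were called in inflamed against normal mucosa, where limma called 0 of all genes (638 at an unadjusted p under 0.05), and 4 in adenocarcinoma against normal mucosa: Col4a1 (1.56), Col4a2 (1.77), Nid1 (2.17) and Hspg2 (1.48). With the endothelial score, 0 of the 10 and 0 of all genes were called in either comparison with normal mucosa (458 and 975 genes at an unadjusted p under 0.05). The Col4a1 difference then was -0.19 for inflamed minus normal and 0.46 for adenocarcinoma minus normal, and that of Nid1 0.22 and -0.16. Agrn also lost its calls, but with larger differences. Its inflamed minus normal difference, -0.77 without a score, became -1.90 with the smooth muscle and -1.03 with the endothelial score (adjusted p = 1 in both), and its adenocarcinoma minus normal difference, -0.54 without a score, became -1.01 (adjusted p = 0.055) and -0.84 (adjusted p = 1). Between adenocarcinoma and inflamed mucosa, Col4a1 (0.64, limma adjusted p = 0.013) and Col4a2 (0.63, limma adjusted p = 0.0214) were called with the endothelial score and missed the threshold with the smooth muscle score (1.30, adjusted p = 0.521, and 1.16, adjusted p = 0.814). Since normal mucosa does not overlap the diseased groups in either score, and smooth muscle scores do not overlap between any groups, such a fit has little with which to separate the score from the group.

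**Figure D4:**
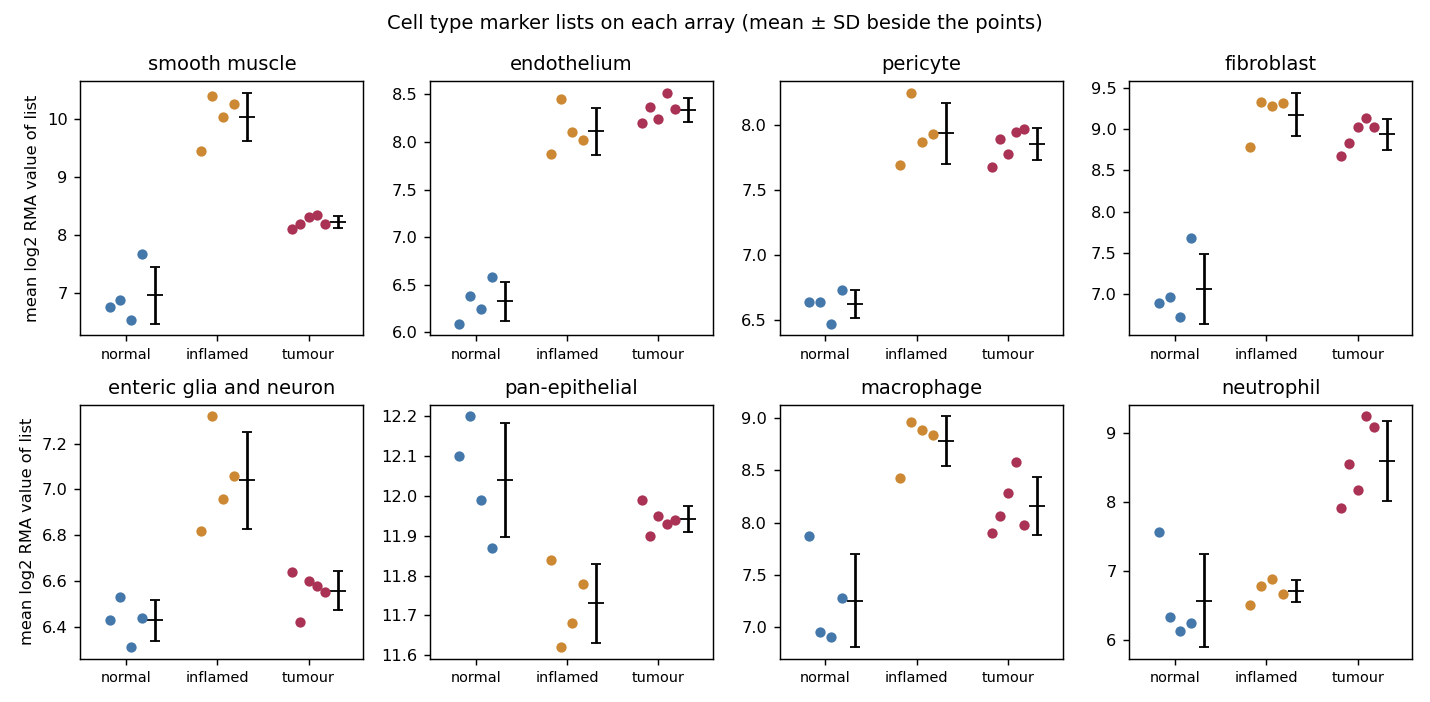
Mean log2 value (vertical axis, a separate scale for each list) of 8 cell type marker lists on each array, by group, with the mean and SD beside the points. Smooth muscle is highest in inflamed mucosa (9.45 to 10.39), while endothelium, pericytes, fibroblasts and macrophages are raised in both inflamed mucosa and adenocarcinoma.

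Likeness of pattern was measured by Pearson's r over the 13 arrays and is given as a description, since the group differences set much of it. The gene most like Col4a1 of all 19938 was Col4a2 (r = 0.988, and 0.81 for deviations from the group means), followed by Mctp1 (0.985) and the fibril-associated collagen Col12a1 (0.984). For Col4a2 it was Col4a1, then Tenm3 (0.979) and the cross-linking enzyme Lox (0.977). Nid1 was closest to Ptprb, a phosphatase of endothelial cells (0.995), Col6a1 (0.993) and the metalloproteinase inhibitor Timp2 (0.993). Hspg2 was closest to the laminin chains Lamb1 (0.991) and Lamc1 (0.990) and to Igfbp4 (0.990), and its r with Nid1 was 0.986. Nid2 stood closest to Sox18, a transcription factor of endothelium (0.974), Chsy3 (0.961) and Scube1 (0.949).

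The other genes had less close partners. Agrn was most like Sphk2 (0.904), Ppm1b (0.899) and Diaph1 (0.896), and Bcam like Ncs1 (0.940), Prkar1b (0.920) and Calhm2 (0.910). Dag1 was most like Wdsub1 (0.899), Arsg (0.880) and Acpp (0.868). Col4a5 went with Mesp1 (0.945), Slc26a7 (0.935) and Tnfrsf25 (0.924), and Col4a6 with Il21r (0.892), Edn3 (0.857) and Trhde (0.842). Col4a5 and Col4a6 had an r of 0.524 with each other (0.18 for deviations from the group means). For Col4a1 and Col4a2 these values were 0.988 and 0.81. Col4a5 and Col4a6 read near the level of absent transcripts and varied little, which limits their r. The head-to-head pairs can therefore not be ranked by it.

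The list counts that follow are to be read against the shares of all genes called: 13.7% higher and 13% lower in inflamed against normal mucosa, 16.4% and 19.4% in adenocarcinoma against normal mucosa, and 2.91% and 4.21% in adenocarcinoma against inflamed mucosa. The laminin chains, the partners that nidogen binds, were read as a list of 10 measured genes. In inflamed mucosa 6 rose and 0 fell against normal (median difference 0.93), and in adenocarcinoma 7 rose and 1 fell (median 1.45). Lamb1, the β1 chain, was 4.71-fold higher in inflamed mucosa (limma adjusted p = 9.34e-07) and 6.17-fold higher in adenocarcinoma (limma adjusted p = 3.95e-08). Lamc1, the γ1 chain that carries the nidogen-binding site, was 5.19-fold and 7.02-fold higher (limma adjusted p = 2.35e-06 and 1.54e-07). Against inflamed mucosa, 3 chains rose in adenocarcinoma and 0 fell (median 0.41): Lama1 1.79-fold, Lamb3, a chain of epithelial laminin-332, 1.75-fold, and Lama5, the ligand chain of Bcam, 2.05-fold (limma adjusted p = 0.00122, 0.00527 and 0.012).

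Enzymes and chaperones that fold and cross-link collagens, not collagen IV alone, were read as 19 genes (the collagen IV folding and cross-linking list). Against normal mucosa, 13 rose and 0 fell in inflamed mucosa (median 0.47), and 15 rose and 1 fell in adenocarcinoma (median 0.72). Lox, the lysyl oxidase that cross-links collagens and elastin, was 6.88-fold higher in inflamed mucosa (limma adjusted p = 1.66e-06) and 16.0-fold higher in adenocarcinoma (limma adjusted p = 1.95e-08). It was the 1 gene of the list called between adenocarcinoma and inflamed mucosa, where it rose 2.33-fold (limma adjusted p = 0.00239). Pxdn, the peroxidase that forms the sulfilimine bonds between collagen IV trimers, was 4.23-fold and 6.47-fold above normal (limma adjusted p = 5.18e-06 and 1.7e-07), and Plod2, a lysyl hydroxylase, 5.82-fold and 4.43-fold (limma adjusted p = 6.69e-06 and 9.56e-06). The normal means of Lox (4.90 ± 0.07, SD, n = 4) and Plod2 (5.38 ± 0.32, SD, n = 4) lay below the 5.57 reached by absent transcripts, so the true folds of these genes can be larger.

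Of 24 other basement membrane proteins, 14 rose and 2 fell in inflamed mucosa, and 14 rose and 1 fell in adenocarcinoma, against normal (medians 0.54 and 0.53). This list includes Col4a3 and Col4a4, and their falls given above are the lower calls against normal mucosa counted again. Sparc, which binds collagen IV, was 13.9-fold and 21.3-fold higher (limma adjusted p = 3.53e-06 and 2.95e-07). Between adenocarcinoma and inflamed mucosa 3 rose and 1 fell (median 0.11). The 3 that rose were Smoc1, a Sparc relative (2.25-fold, limma adjusted p = 0.000203), Col18a1, the source of endostatin (2.03-fold, limma adjusted p = 0.00021), and Col15a1 (1.55-fold, limma adjusted p = 0.0195), and Ntn1, a netrin, fell 1.44-fold (limma adjusted p = 0.0204).

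**Figure D5:**
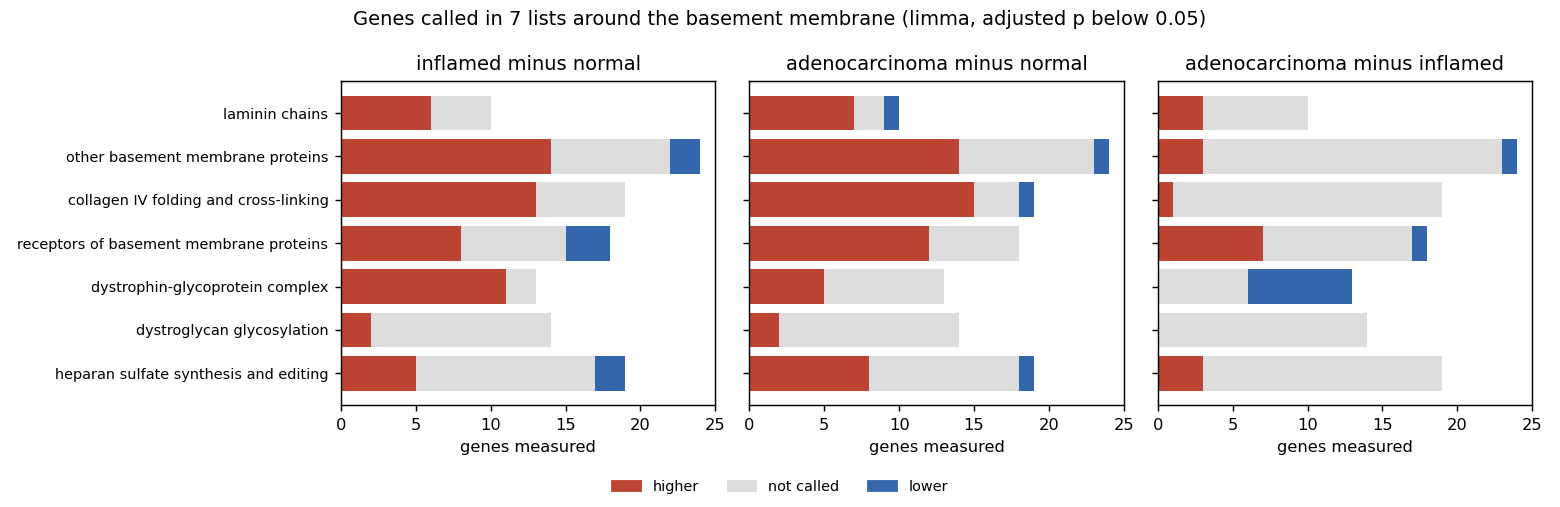
Number of measured genes (horizontal axis) called higher, called lower or not called in 7 lists around the basement membrane, in the 3 comparisons. Higher calls make up most of the laminin and collagen IV folding lists against normal mucosa (6 of 10 and 13 of 19 in inflamed mucosa), and the dystrophin-glycoprotein list has 7 of 13 genes lower in adenocarcinoma than in inflamed mucosa.

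Of 18 receptors of collagen IV, laminin, agrin and perlecan, 8 rose and 3 fell in inflamed mucosa and 12 rose and 0 fell in adenocarcinoma, against normal (medians 0.23 and 0.61), where 3 of 18 lower is near the 13% of all genes called lower in inflamed mucosa. The collagen receptors Ddr2 and Itga1 were 7.53-fold and 4.85-fold higher in inflamed mucosa (limma adjusted p = 3.18e-06 and 8.96e-06). Itga2, the α2 chain of a collagen-binding integrin, was 6.36-fold higher in adenocarcinoma than in normal mucosa (limma adjusted p = 1.7e-07). From inflamed mucosa to adenocarcinoma 7 rose and 1 fell (median 0.13). Itga2 rose 2.83-fold (limma adjusted p = 0.00021), Itga3 1.57-fold (limma adjusted p = 0.00211) and Itgb4, the partner of the deleted α6 chain, 1.5-fold (limma adjusted p = 0.00508), while Musk, the receptor kinase through which agrin acts in muscle, fell 1.67-fold (limma adjusted p = 0.00321).

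Dystroglycan's partners moved although Dag1 itself was not called. Of 13 genes of the dystrophin-glycoprotein complex, 11 rose and 0 fell in inflamed against normal mucosa (median 1.17), 5 rose and 0 fell in adenocarcinoma against normal (median 0.32), and 0 rose and 7 fell in adenocarcinoma against inflamed mucosa (median -0.85). Among the last, Dtna, encoding α-dystrobrevin, fell 3.17-fold (limma adjusted p = 0.000165), the sarcoglycan Sgcd 2.95-fold (limma adjusted p = 0.000452), dystrophin (Dmd) 2.23-fold (limma adjusted p = 0.000354) and sarcospan (Sspn) 1.80-fold (limma adjusted p = 0.0018). The adenocarcinoma means of Dtna (5.81 ± 0.08), Sgcd (5.67 ± 0.07), Dmd (5.72 ± 0.15) and Sspn (5.95 ± 0.05; SD, n = 5 each) were close to the 5.57 reached by absent transcripts, so these folds can understate the change. The smooth muscle score moved in the same order (ranges above), and its part in these results was not tested. Among 14 genes that glycosylate dystroglycan, 2 rose and 0 fell in each comparison with normal mucosa (Pomgnt1, 1.43-fold and 1.55-fold, limma adjusted p = 0.00669 and 0.000783, and B3galnt2, 1.42-fold and 1.44-fold, limma adjusted p = 0.018 and 0.00747), and 0 were called between adenocarcinoma and inflamed mucosa. A count of 2 of 14 is near the 13.7% and 16.4% of all genes called higher in these comparisons.

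Heparan sulfate, the sugar chain of perlecan and agrin, is built and edited by the products of 19 measured genes. In inflamed mucosa 5 rose and 2 fell and in adenocarcinoma 8 rose and 1 fell, against normal (median 0.26 in both), and 3 rose and 0 fell between adenocarcinoma and inflamed mucosa (median 0.15). As shares of the list, the lower counts against normal mucosa were below the 13% and 19.4% of all genes. Sulf2, which removes sulfate groups from the finished chain outside the cell, was 4.22-fold higher in inflamed mucosa (limma adjusted p = 2.15e-05) and 8.99-fold higher in adenocarcinoma (limma adjusted p = 2.12e-07) than in normal mucosa, and 2.13-fold higher in adenocarcinoma than in inflamed mucosa (limma adjusted p = 0.00701). Xylt1, which starts the chain on the core protein, fell 2.94-fold in inflamed mucosa (limma adjusted p = 2.12e-05) and 4.29-fold in adenocarcinoma (limma adjusted p = 5.44e-07).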

How the data were processed

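RNA of 13 mouse rectal samples was hybridised singly to Affymetrix Mouse Gene 1.0 ST arrays. The authors scanned them with Affymetrix Command Console 2.0 and deposited log2 expression values made with the RMA method of Affymetrix Expression Console 1.1, per the labels and the series' design text. Partek is named without a role in the submitters' processing notes. RMA corrects background, normalizes quantiles between arrays and summarises probes, so differences are relative to all probes, and shared probe behaviour can compress low values. No counts exist, so the number of arrays limits the precision. For the array, a genome build was not stated.

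Of 35556 transcript clusters, 21789 had 1 gene symbol in the platform annotation, 1621 several and 12146 none, and 21698 were matched to RefSeq by gene ID. For the 999 genes with several clusters the one with the highest mean over all arrays was kept, giving 19938 genes. Groups were fitted together with limma 3.58.1 (R 4.3.3, lmFit and eBayes), with Benjamini-Hochberg adjustment over all genes. On simulated data with 19938 genes and the inflamed minus normal design, 40.3% of genes changed by 0.5 (log2) were called, 91% at 1 and 100% at 2. For adenocarcinoma minus normal these shares were 52.2%, 95.5% and 100%, and for adenocarcinoma minus inflamed 40.3%, 94% and 100%. Among unchanged genes 12, 8 and 11 were called, in the same order of comparisons. Only 66 or 67 genes were changed at each size, far fewer than were called in the data. The adjustment was therefore stricter in the simulation, and these shares do not measure the power of the tests reported here.

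Whether sample numbers pair arrays was checked from deviations from the group means. Same-numbered adenocarcinoma and inflamed arrays correlated at 0.319, 0.198, 0.199 and 0.387 and were taken as pairs, the number and matching age and sex in the labels being the source. Normal arrays correlated with same-numbered arrays at -0.126 to 0.0413 and were not. Differently numbered adenocarcinoma and inflamed arrays correlated at -0.318 to 0.185. Differently numbered adenocarcinoma and normal arrays reached 0.283, so a value of this size alone does not show a pair.

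The 10 genes and all lists were chosen with earlier results of these data known, so list counts are descriptions. Named genes are the 10 genes, up to 4 called genes of smallest adjusted p per list and comparison, the 3 named genes most correlated with each of the 10 (predicted genes, clones, immunoglobulin, T-cell receptor and olfactory genes passed over), and Itga6 and Itgb4. Of 223 list symbols, 212 were measured, and Mcam stands in both the receptor and the pericyte list. Alternatives covered scaling, gene summary, filtering, variance model, array weights, sex, age, blocks, marker scores and leaving out each array.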

Additional observations from a re-analysis of the deposited data

Results flagged for a closer look

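Among 30 sets of values, each 1 of the 10 genes in 1 group, 1 array stood apart from the rest of its group. Inflamed mucosa 2 read 8.47 for Col4a1, above the next highest inflamed array at 8.12, and that gap was 0.943 of the group's whole range. Chance alone flags about 1 in 20 such sets. Without this array the inflamed minus normal difference of Col4a1 was 1.02 (limma adjusted p = 0.000638).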

How the results depend on the processing

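Over the alternatives, 755 of the values of the 10 genes kept their direction and side of the threshold, 32 lost the call (6 of them with a change of sign), 4 gained it and 29 others, called in neither fit, changed sign. Apart from Col4a6 in adenocarcinoma against normal mucosa, every call held in all 13 fits that left out 1 array. Fixed and random replicate blocks changed no call (7, 7 and 2 genes called). These blocks also joined normal arrays to same-numbered diseased arrays, although normal arrays were not taken as pairs above. With the fixed block, Col4a5 (0.02) and Dag1 (-0.05) changed sign for inflamed minus normal. Nid1 (-0.09) did so for adenocarcinoma minus inflamed, where age as a covariate also gave -0.09. Other sign changes for inflamed minus normal were Col4a6 with sex as a covariate (0.01), Col4a5 (0.08) and Col4a6 (0.11) after cyclic loess, and Dag1 (0.00) with array weights. With array weights, adenocarcinoma minus inflamed had 4 of the 10 genes called, Nid2 (0.40) and Col4a6 (-0.26) being added, and 2296 genes in all against 1420. Leaving out 1 array moved the genes called from 3524 (without inflamed mucosa 2) to 5786 for inflamed minus normal and from 775 (without inflamed mucosa 2; 857 without inflamed mucosa 4) to 1652 for adenocarcinoma minus inflamed. It moved Col4a5 between -0.08 and 0.02, Col4a6 between -0.07 and 0.05 and Dag1 between -0.02 and 0.12 for inflamed minus normal, and Nid1 between -0.14 and 0.16 and Dag1 between -0.03 and 0.11 for adenocarcinoma minus inflamed. The smooth muscle score as a covariate left 0 of the 10 genes and 0 of all genes called for inflamed minus normal (limma; 638 at an unadjusted p under 0.05), 4 and 1032 for adenocarcinoma minus normal, and 0 and 7 for adenocarcinoma minus inflamed (923 of all genes at an unadjusted p under 0.05). Signs changed there for Col4a5 (0.05), Col4a6 (0.55) and Bcam (-0.25) in the first comparison, Bcam (-0.02) in the second, and Bcam (0.23) and Dag1 (-0.05) in the third. The endothelial score left 0 of the 10 genes and 0 of all genes called in both comparisons with normal mucosa (limma; 458 and 975 at an unadjusted p under 0.05). It changed the sign of Col4a1 (-0.19), Col4a2 (-0.20), Col4a6 (0.61), Nid2 (-0.06) and Dag1 (-0.08) for inflamed minus normal, of Col4a6 (0.43), Nid1 (-0.16), Bcam (-0.39) and Dag1 (-0.05) for adenocarcinoma minus normal, and of Nid1 (-0.38) for adenocarcinoma minus inflamed. The cause of these changes was not tested. Col4a5 and Col4a6 read close to the level of absent transcripts, which limits what their values can show.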
